A study of Mus musculus with 12 samples.

Results

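Among the circular RNAs measured in mouse blood after middle cerebral artery occlusion (MCAO), 65 were at least 2 log2 units above sham at 24 h while their mean stayed less than 1 log2 unit above sham at 3 h and at 5 min. They were chosen by these 3 differences of group means, out of 8844 circRNA probes that the scanner software called well above background on all 12 arrays, and 477 of the 8844 met the 24-h limit alone. Because the same arrays chose the members, the levels and differences given for them are a description and carry no test. The samples were whole blood of male Balb/c mice, 8 weeks old on the sample labels and older in the methods, taken by cardiac puncture. In the treated groups the artery was closed for 5 min, for 3 h or for 24 h with a silicon-coated nylon filament under isoflurane, and sham mice had the same surgery with the occlusion held for 0 min. Each group had 3 arrays, numbered 1 to 3, which the study calls biological replicates. The labels do not name the animals behind them, so p-values measure only the spread between these arrays. Whole blood mixes red cells, platelets and many kinds of leukocyte, and a change in the share of a cell type cannot be told apart from a change in RNA per cell.

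A circular RNA forms when the splicing machinery joins the end of an exon back to the start of an exon that lies upstream, which leaves a ring with no free end. Without ends it resists exonucleases such as RNase R, the enzyme used here to remove linear RNA, and in blood many such rings are carried by red cells, platelets and leukocytes. Some rings hold binding sites for microRNAs or proteins, and most have no known role. An array of this kind reads each ring through a probe for its back-splice junction, so several rings of 1 host gene are measured apart from each other and from the host mRNA.

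Of the 65 probes, 64 could be named through the list of circRNAs that the authors published, and probe ASCRP4014131 remained unnamed. By the types in that list, 47 of the 64 were exonic, 8 sense overlapping, 4 antisense, 3 intronic and 2 intergenic. Exonic rings made up 73.4% of the 64 and 68.5% of the 251 named rings that were also at least 1 log2 unit up at 3 h, and 76.9% of the 277 named rings that were lower by 2 log2 units or more at 24 h. The 64 places lay on 19 chromosomes, up to 8 on chromosome 7 and 7 on chromosome 9, with 28 on the plus and 36 on the minus strand, and no pair of them overlapped. The genomic span from end to end had a median of 13554 bp among the 64 and 8854 bp among the 251. The shortest was the 318-bp ring of Ppp1r13l and the longest spanned 143108 bp.

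The span of 2 of the 64 rings held a microRNA hairpin, in both on the strand of the ring. Of all 852 named and measured rings, 11 had a span that held a hairpin on either strand (1.29%). These sequences are shown because they are the annotated small RNAs within the genomic spans of rings described here. A span includes any introns, and both rings are listed as exonic. Exon positions were not available, so whether the rings themselves contain these bases was not tested. The first ring was that of Smc4, a core subunit of the condensin complex (mmu_circRNA_35559, chr3:69009483-69019325, plus strand, mm10 as the list gives it), and it spanned the hairpins Mir15b and Mir16-2. The second was that of Rab4b, a small GTPase of endosome recycling (mmu_circRNA_41232, chr7:27174421-27176238, minus strand), which spanned Mir3101. The mature sequences are RefSeq's (GRCm38.p6), with the seed, bases 2 to 8, in capitals:
mmu-miR-15b-5p: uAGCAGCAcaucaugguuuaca
mmu-miR-16-5p: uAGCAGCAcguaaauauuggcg
mmu-miR-15b-3p: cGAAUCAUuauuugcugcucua
mmu-miR-16-2-3p: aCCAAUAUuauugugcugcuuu
mmu-miR-3101-5p: gGUACCAUugacuaaagcuag
mmu-miR-3101-3p: uAGCUUUGguggauggucuuu
The 5p arms of miR-15b and miR-16 shared the seed AGCAGCA, and no other seed occurred more than once among the 6. The array has no value for these microRNAs in the files used here. The Smc4 ring itself measured 6.04, 5.72 and 5.84 log2 units in sham and 8.31, 8.08 and 7.35 at 24 h. At 3 h it stood at 5.96, 6.27 and 6.21 and at 5 min at 6.10, 6.52 and 6.52, so that only the 24-h arrays lay clear of sham by more than 1 unit. The Rab4b ring measured 7.17, 6.90 and 6.71 in sham, 7.59, 7.86 and 7.85 at 3 h and 9.30, 9.20 and 8.91 at 24 h.

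The 250 bases before the start of the host genes were searched on both strands for ACGTG, the core that hypoxia-inducible factors bind, and for TTCNNNGAA, the core that STAT factors bind. ACGTG occurred in 5 of 62 host promoters, those of Acer3, Kiz, L3mbtl4, Ppp1r13l and Trip4 (8.06%, against 16.6% of all 32851 promoters), and TTCNNNGAA in 2, those of Epha3 and Ube2cbp (3.23% against 7.02%). The 62 promoters belong to 44 host genes. Matches to a motif are a description of letters, and binding was not measured. The promoters of the 2 hosts with a match among the largest differences are shown, with the match in capitals. Ppp1r13l encodes iASPP, an inhibitor of p53, and its promoter lies at chr7:19360966-19361215 (plus strand, GRCm38.p6). Ube2cbp encodes a ubiquitin ligase, and its promoter lies at chr9:86464917-86465166 (minus strand).
Ppp1r13l: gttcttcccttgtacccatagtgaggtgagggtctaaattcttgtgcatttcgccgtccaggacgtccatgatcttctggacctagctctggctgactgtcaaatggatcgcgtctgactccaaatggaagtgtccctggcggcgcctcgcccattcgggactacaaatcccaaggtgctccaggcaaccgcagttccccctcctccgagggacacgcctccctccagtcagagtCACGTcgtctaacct
Ube2cbp: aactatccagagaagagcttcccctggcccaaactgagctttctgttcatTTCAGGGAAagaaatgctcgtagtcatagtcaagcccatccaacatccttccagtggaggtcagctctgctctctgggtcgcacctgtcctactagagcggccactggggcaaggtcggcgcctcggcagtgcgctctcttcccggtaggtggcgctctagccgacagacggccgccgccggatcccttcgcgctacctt

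Over the 65 circRNAs the 24-h mean exceeded the sham mean by a median of 2.28 log2 units, with a range of 2.01 to 4.25, while the median over all 8844 probes was -0.18. The difference at 3 h had a median of 0.77 (range -0.08 to 0.99) and that at 5 min a median of 0.47 (range -1.56 to 0.96). On these means the members were thus not flat before 24 h. However, all 3 differences share the sham arrays, and the rule favours probes that read low on them. The shares of all probes that follow are therefore not a like comparison, and an early rise was not tested. At 3 h, 51 of the 65 were 0.5 to 1 log2 unit above sham, and all 3 arrays of 3 h lay above all sham arrays for 44 of the 65, against 14.7% of all 8844 probes. At 5 min the same held for 32 of the 65, against 24.5% of all probes. The 3-h difference was a median of 30.4% of the 24-h difference. Only 9 of the 65 were within 0.5 log2 units of sham at both earlier times, among them the rings of Lrig2, Gm272, Adgre1, Prdm11, Parp14, Phtf2, Tspan13 and Acer3, which were picked out after their values were seen.

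**Figure D1:**
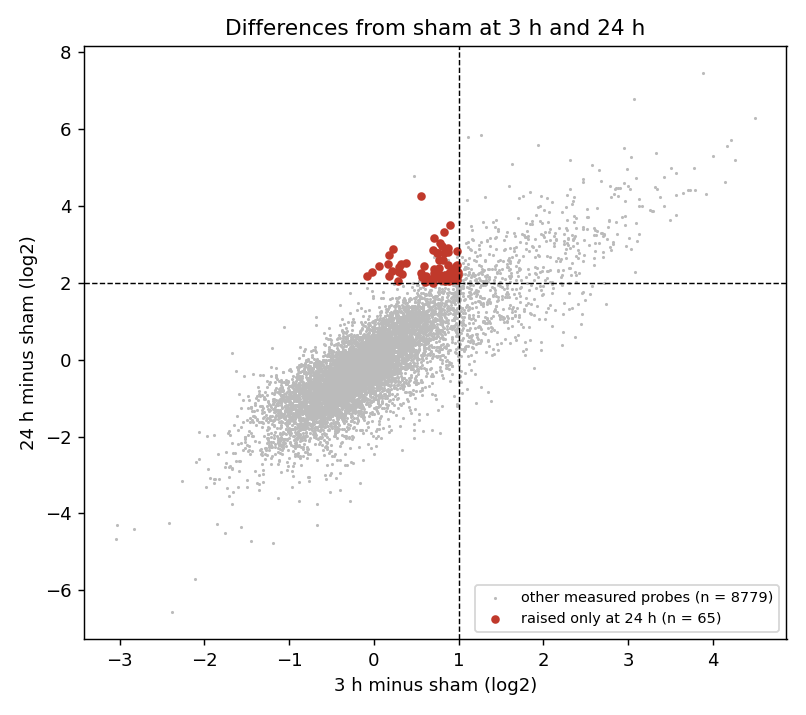
Difference from sham at 3 h (x axis, log2) against that at 24 h (y axis, log2) for 8844 measured circRNA probes, each point 1 probe and the dashed lines the limits of 1 and 2. The 65 chosen circRNAs (red) fill the upper left field up to the line at 3 h, where the cloud goes on without a gap.

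The limits cut through a continuous distribution. Among the probes that met the 24-h limit with less than 1 log2 unit at 5 min, 36 had a 3-h difference from 0.75 to below 1 and 44 from 1 to below 1.25. Just inside the 3-h limit stood the rings of Trip4 (0.99), Eml6 (0.99) and Nme1 (0.99), and just outside those of Prkce (1.00), Nr3c2 (1.00) and Lrrc28 (1.01). Just inside the 24-h limit stood Mgat1 (2.01), Dmxl2 (2.03) and Smc4 (2.05), with 3 unnamed probes at 2.00, 1.99 and 1.98 just outside it. At the 5-min limit Vac14 (0.96), Adam17 (0.95) and Ica1l (0.90) were the nearest inside, and Pcdh15 (1.00), Prrc2b (1.04) and Lrp5 (1.04) the nearest outside.

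All 3 arrays of 24 h lay above all 3 sham arrays for 64 of the 65, the exception being the ring of Mfsd6, and above all 9 other arrays for 60. The shares of all 8844 probes that met these conditions were 20.8% and 6.22%. With limma's moderated test, Benjamini-Hochberg adjustment and a difference of at least 2, 64 of the 65 were called higher at 24 h, where 5.26% of all probes were. With the scan as a further term of the fit it was 30 of the 65, and 6.68% of all probes. Because the rule used this contrast, nothing is read from these counts. Calls at 5 min and at 3 h were on an adjusted p of at most 0.05 alone, with no limit on the difference. No member was called by limma at 5 min in either direction, where 2.95% of all probes were called higher and 4.6% lower. There 16 of the 65 had an unadjusted p under 0.05, against 29.1% of all probes. At 3 h the rings of Eml6 and Gm39066 were called higher, 2 of 65, against 4.32% of all probes. The rule kept the 5-min and 3-h differences below 1, which by itself makes higher calls there rare. Nothing is therefore read from these counts either.

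**Figure D2:**
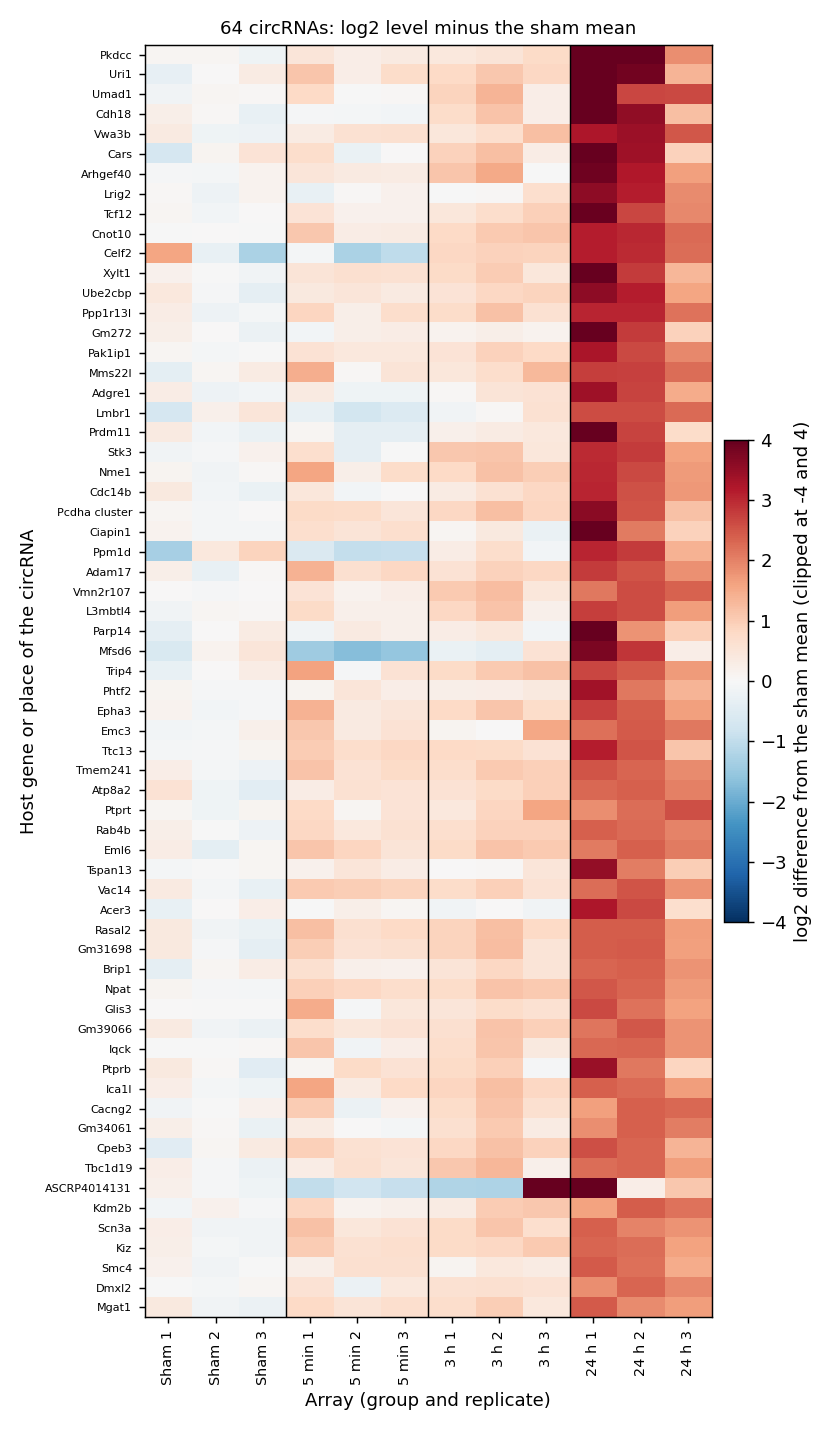
log2 level minus the sham mean for 64 of the 65 circRNAs (rows, ordered by the 24-h difference and named by host gene or place) on the 12 arrays (columns), red above and blue below the sham mean. The 24-h columns are red in nearly all rows, mostly darkest on replicate 1 and palest on replicate 3, and the columns of 3 h and 5 min are mostly pale red.

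The 24-h arrays differed among themselves. The median of the members lay 2.80, 2.50 and 1.69 log2 units above the sham mean on replicates 1, 2 and 3, and 60, 61 and 15 of the 65 were 2 or more above it. Replicate 3 was the lowest of the 3 for 58 of the 65 members (33.2% of all probes) and replicate 1 the highest for 47 (35.4% of all probes). The 261 circRNAs that were up at both 3 h and 24 h had the same order, with medians of 3.32, 2.88 and 2.16. The SD over the 3 arrays of 24 h was above 1 log2 unit for 21 of the 65 (11.6% of all probes), and its median was 0.51, where the median SD was 0.24 over the sham arrays, 0.24 over those of 5 min and 0.25 over those of 3 h. Over all 8844 probes the median SD was also highest at 24 h, at 0.47, against 0.30 in sham, 0.29 at 5 min and 0.31 at 3 h. In 8 of the 65 it was at most 0.3, and these were the rings of Lmbr1, Vmn2r107, Emc3, Atp8a2, Rab4b, Eml6, Gm34061 and Dmxl2, listed after their values were seen. Even the lowest of the 3 arrays of 24 h lay 2 or more above the sham mean for 11 of the 65. Without replicate 3 of 24 h the same limits would take in 104 circRNAs, the 65 among them.

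The arrays were read in 2 scans, by the scan time in their headers. The first scan held sham, 5 min and replicates 1 and 2 of 3 h, and the second held replicate 3 of 3 h and the 24-h group, so sham and 24 h share no scan. Negative control spots had raw medians of 25 to 27 in the first scan and 83.5 to 101 in the second, and their part in the 24-h differences was not tested. Only the 3-h group had arrays in both scans. Replicates 1 and 2 of 3 h, read with sham in the first scan, lay a median of 0.85 above the sham mean. On the 3-h array of the second scan the members lay a median of 0.61 above it, with 11 of 65 at 1 or more. That last comparison crosses the scans. Within the second scan the 24-h mean exceeded that 3-h array for 64 of 65 members, by a median of 1.70. It exceeded it by 1 or more for 61 of 65 (8.98% of all probes) and by 2 or more for 19 (0.882% of all probes). The rule already sets the 24-h mean of each member above its 3-h mean, to which that array belongs. These within-scan counts are therefore largely fixed by the rule and are no separate check on the scan. The raw median of the members was 105 to 115 in sham, 68.5 to 87 at 5 min, 192.5 to 282 at 3 h, and 1474, 599 and 349 at 24 h. No member spot was saturated or marked as an outlier on any array.

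**Figure D3:**
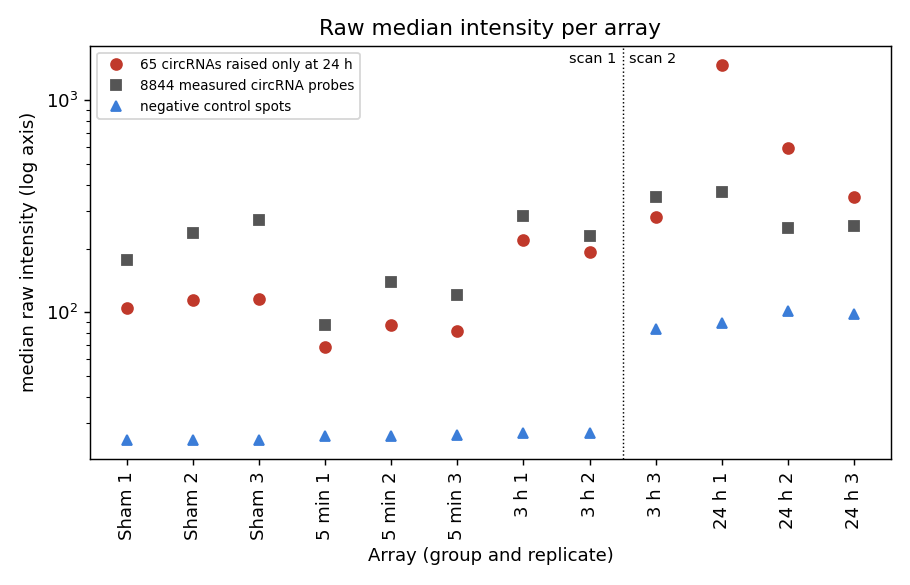
Median raw intensity (log axis) on each of the 12 arrays of the 65 circRNAs, of all 8844 measured circRNA probes and of the 77 negative control spots. The members pass the median of all probes only on the 3 arrays of 24 h, and the negative controls step up between the scans.

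The largest difference was that of the ring of Pkdcc (mmu_circRNA_016901, exonic, chr17:83221789-83222230), the gene of a secreted tyrosine kinase that acts on extracellular proteins. It measured 4.94, 4.92 and 4.69 log2 units in sham, 5.35, 5.10 and 5.22 at 5 min and 5.27, 5.35 and 5.60 at 3 h. At 24 h it measured 11.01, 9.61 and 6.69, a mean of 9.10 ± 2.20 (SD, n = 3) and a difference from sham of 4.25, or 19.1-fold. The median raw signal of this probe in sham was 42.5, where the negative controls read 25, and with no background subtraction the difference was 3.18, or 9.04-fold. The 24-h arrays all lay above the other 9, and they covered a range of more than 4 log2 units among themselves. The ring of Uri1 (mmu_circRNA_41329, sense overlapping, chr7:37961387-37969697), whose protein is a prefoldin-like chaperone subunit, went from 6.25, 6.59 and 6.92 in sham to 11.87, 10.44 and 7.94 at 24 h. Its difference was 3.50, and replicate 3 of 24 h lay only a little above the highest of the other 9 arrays, 7.69 at 5 min. The intronic ring of Umad1 (mmu_circRNA_39827, chr6:8280220-8291914) had 5.17, 5.38 and 5.36 in sham and 9.98, 7.96 and 7.96 at 24 h, a difference of 3.33. Its median raw signal in sham was 58, and with no background subtraction the difference was 2.46. The sham raw median was under 100 for 30 of the 65. Over all 65 the median 24-h difference with no background subtraction was 1.98, so the sizes given here and below depend on that step.

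The rings of Cdh18 and Vwa3b also passed 3 log2 units. The Cdh18 ring (mmu_circRNA_28306, chr15:23436449-23460567), from the gene of a classical cadherin best known from neurons, stood at 6.99, 6.79 and 6.47 in sham and at 11.51, 10.30 and 7.95 at 24 h, a difference of 3.17. At 5 min it stood at 6.69, 6.66 and 6.64, inside the sham range. The Vwa3b ring (mmu_circRNA_19930, chr1:37035636-37063549), from the gene of a protein with a von Willebrand factor A domain, was steadier, with 6.68, 6.16 and 6.13 in sham and 9.57, 9.73 and 8.80 at 24 h. Its difference of 3.05 came with an SD of 0.50 at 24 h.

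**Figure D4:**
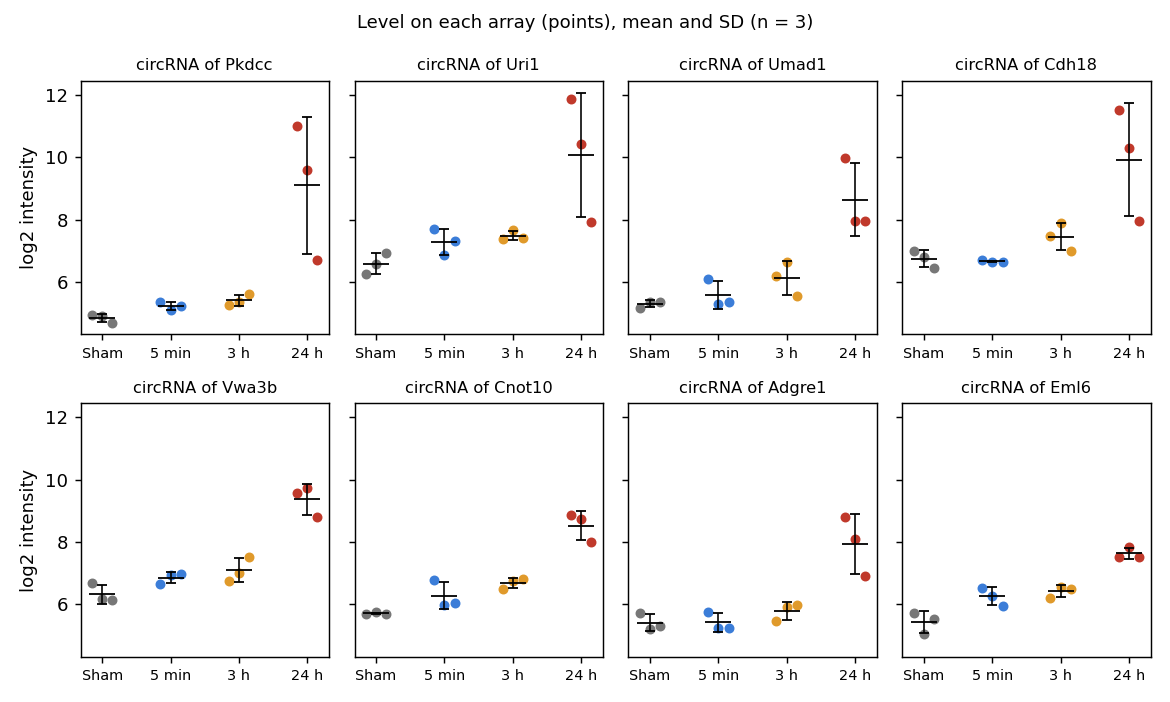
log2 intensity on each array for 8 of the circRNAs, with the group mean and SD (n = 3). In Pkdcc, Uri1 and Cdh18 the 24-h arrays spread over several log2 units, in Cnot10 and Eml6 they lie closer together, and in all 8 they sit above the other 9 arrays.

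The host genes were also grouped by lists of known function. These rest on names that the authors gave only to circRNAs they had picked as changed in these samples, so their counts are no independent evidence of a direction. Of all 852 named and measured rings 465 were called higher at 24 h (54.6%) and 277 lower, and the median 24-h difference over the 852 was 2.08. Of the 64 named members, 42 belonged to none of the lists.

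The next members, outside the functional lists except for Celf2, are set together by the known role of the host gene, a grouping made after their values were seen. The ring of Cars, the cytosolic cysteinyl-tRNA synthetase, differed by 2.95, but its 24-h values of 10.33, 9.17 and 6.71 overlapped the 3-h values of 6.71, 6.98 and 6.08. The ring of Cnot10, a subunit of the CCR4-NOT complex that shortens poly(A) tails, stood at 5.70, 5.74 and 5.69 in sham and at 8.86, 8.74 and 7.99 at 24 h. Its sham values lay within 0.1 of each other, and at 3 h it was already 0.98 above them. The intronic ring of Celf2, a splicing regulator of neurons and lymphocytes, measured 8.81, 6.94 and 5.97 in sham, the widest sham spread among the members, and 10.38, 10.24 and 9.47 at 24 h. The ring of Pak1ip1, needed for ribosome assembly, was 2.60 above sham. The ring of Cpeb3, which controls the translation of synaptic mRNAs, was 2.08 above, with 10.27, 10.80 and 11.08 in sham and 13.28, 13.03 and 12.08 at 24 h.

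Tcf12 encodes an E protein that T cells need to develop, and its ring stood at 7.13, 6.92 and 7.07 in sham and at 11.00, 9.71 and 8.97 at 24 h, a difference of 2.85. The ring of Mms22l, which acts at stalled replication forks, was 2.59 above sham. Of 33 named and measured rings in the chromatin list, 24 were called higher and 7 lower at 24 h, and 4 were members, those of Prdm11 (2.49), L3mbtl4 (2.35), Kdm2b (2.07) and Smc4. For Prdm11, a PR-domain protein, the sham values were 6.70, 6.23 and 6.07 and those of 24 h 10.36, 9.03 and 7.07. The ring of Kdm2b, a histone H3K36 demethylase, gave 6.82, 7.65 and 7.39 at 24 h and was one of the few with replicate 1 the lowest.

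In the list for kinases and phosphatases, 18 of 33 were called higher, 13 lower and 4 were members. The list is not a full count of such genes. It leaves out Pkdcc, Epha3, Ptprt and Ptprb and takes in Ppp1r13l, which encodes the p53 inhibitor iASPP. Ppp1r13l, described above by its promoter, had a ring at 6.41, 5.90 and 6.03 in sham and 9.18, 9.17 and 8.30 at 24 h, a difference of 2.77. Stk3 encodes MST2, a kinase of the Hippo pathway, and its ring differed by 2.48. The ring of Cdc14b, a dual-specificity phosphatase, differed by 2.45. Ppm1d encodes a phosphatase that p53 induces and that damps p53 signaling, and its ring measured 8.22, 9.99 and 10.46 in sham and 12.61, 12.36 and 10.96 at 24 h, a difference of 2.42.

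The ring of Arhgef40, a guanine nucleotide exchange factor, went from 5.39, 5.34 and 5.57 in sham to 9.31, 8.64 and 7.09 at 24 h, a difference of 2.91. At 3 h its replicates 1 and 2 stood at 6.56 and 6.96 and replicate 3 at 5.41, so the array of the second scan was the one at sham level. Eml6, a microtubule-binding protein, had a ring at 5.74, 5.06 and 5.52 in sham and 7.53, 7.84 and 7.53 at 24 h. Its SD of 0.18 at 24 h was the smallest among the 65. The ring of Rasal2, a Ras GTPase-activating protein, was 2.17 above sham.

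In the list for cell adhesion and axon guidance, 21 of 23 were called higher, 1 lower and 5 were members. Besides Cdh18 these were an intronic ring of the Pcdha cluster of protocadherins (2.43), Epha3, an ephrin receptor (2.27), and the receptor phosphatases Ptprt (2.22) and Ptprb (2.14). The Epha3 ring measured 6.06, 5.81 and 5.86 in sham, 6.71, 7.02 and 6.66 at 3 h and 8.64, 8.35 and 7.55 at 24 h. For ion channels and pumps the counts were 20 of 29 higher, 4 lower and 3 members, all 3 best known from excitable cells. The ring of Atp8a2, a phospholipid flippase, went from 7.36, 6.62 and 6.36 in sham to 9.07, 9.17 and 8.79 at 24 h. That of Cacng2, or stargazin, which brings AMPA receptors to synapses, gave 7.84, 8.57 and 8.48 at 24 h and a difference of 2.11, and that of the sodium channel Scn3a a difference of 2.06. The synapse list, with 16 of 19 called higher and 2 lower, had no member, and neither had the solute carriers, with 11 of 14 higher and 1 lower. The imprinted and long noncoding transcripts, with 5 of 6 higher and 1 lower, had none either. In the list of neuron and glia markers 7 of 9 were called higher, 1 lower, and Celf2 was the member.

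The list of blood cell markers had only 2 named rings, both of Adgre1, and that of endothelium markers none, so the blood origin of the samples could be checked no further by these names. Adgre1 encodes F4/80, the surface marker of mouse macrophages. Its member ring measured 5.72, 5.22 and 5.30 in sham, 5.77, 5.24 and 5.25 at 5 min and 5.47, 5.93 and 5.99 at 3 h, and then 8.80, 8.11 and 6.90 at 24 h. The sham, 5-min and 3-h values overlapped, and the 24-h values lay above all of them. In the ubiquitin list 14 of 27 were called higher, 9 lower, and the ring of Ube2cbp was the member, at 5.65, 5.17 and 4.86 in sham and 8.81, 8.37 and 6.80 at 24 h.

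Antisense rings run against the annotated gene at their place, and without a strand-specific label of the host they are named here by that gene. That at Lrig2, a membrane protein with leucine-rich repeats, stood at 5.22, 4.98 and 5.32 in sham and 8.75, 8.32 and 7.06 at 24 h, a difference of 2.87. It was level before that, with differences of -0.02 at 5 min and 0.23 at 3 h. The antisense ring at Nme1, a nucleoside diphosphate kinase, differed by 2.45 and that at Gm39066 by 2.14. The intergenic rings were those at Gm272 and Gm31698, at 2.72 and 2.17. Xylt1 encodes the enzyme that starts glycosaminoglycan chains on proteoglycans, and its exonic ring went from 7.28, 7.08 and 6.96 in sham to 11.30, 9.90 and 8.45 at 24 h, a difference of 2.78. Adam17 encodes the sheddase that frees tumour necrosis factor from the cell surface, and its ring differed by 2.38 at 24 h and by 0.95 at 5 min.

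For 10 of the 64 hosts or places the list holds another ring, which makes 10 pairs read by separate probes. The list holds only circRNAs that the authors had picked as changed, so unchanged rings of these hosts could not appear. The number of pairs in each direction is therefore a description. In 3 pairs the other ring went the opposite way at 24 h. At Gm272 both rings end at 49830616 on chromosome 13, and the member starts at 49828935 and the other at 49820612. The member stood at 7.36, 7.12 and 6.87 in sham and 11.59, 9.90 and 8.03 at 24 h. The other ring (mmu_circRNA_26316) stood at 11.18, 10.45 and 10.22 in sham and at 7.76, 8.13 and 7.94 at 24 h, and it was already 2.53 below sham at 5 min.

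The Mms22l rings share their start, 24505344 on chromosome 4. The member, ending at 24536448, measured 7.29, 7.75 and 7.99 in sham and 10.45, 10.42 and 9.92 at 24 h. The longer ring (mmu_circRNA_36559, ending at 24578903) measured 11.25, 9.84 and 8.65 in sham and 6.97, 8.08 and 7.80 at 24 h, a difference of -2.29. Vac14, a scaffold of the kinase complex that makes phosphatidylinositol 3,5-bisphosphate, had a member ring 2.19 above sham at 24 h and another (mmu_circRNA_010637) at -2.05, which does not overlap it. For that other ring the sham values were 8.84, 7.73 and 7.05, and the 24-h values 5.54, 5.68 and 6.24 all lay below them.

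**Figure D5:**
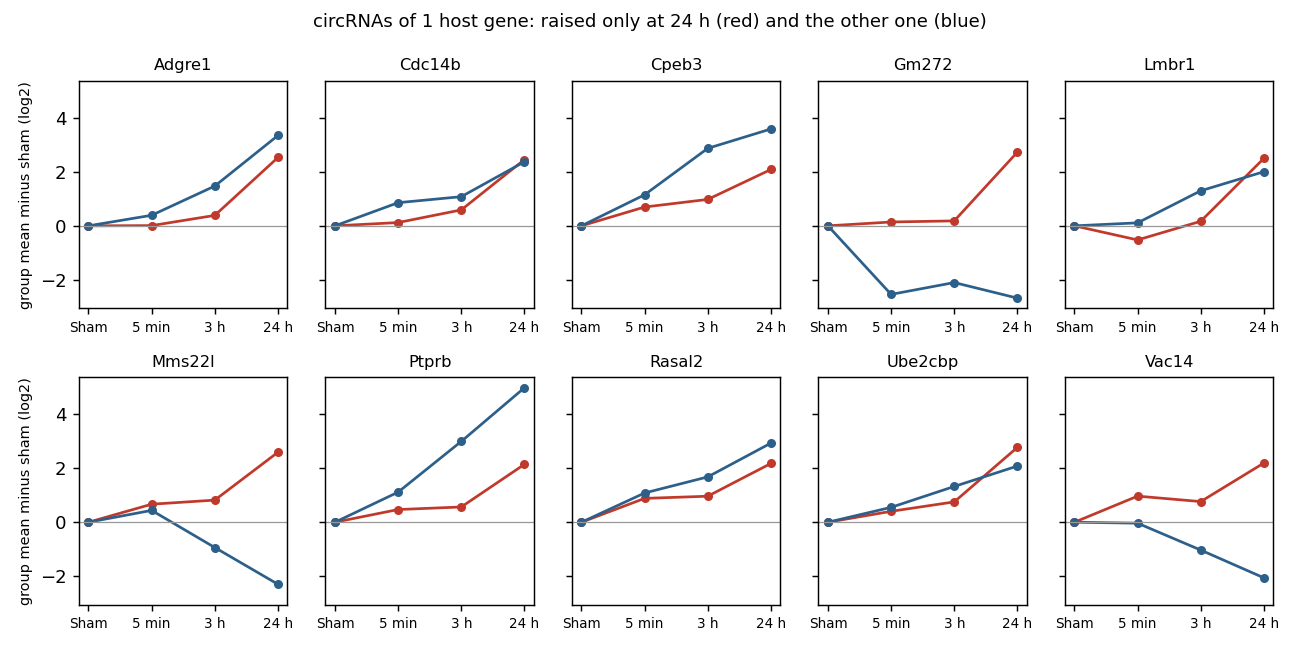
Group mean minus the sham mean (y axis, log2) at sham, 5 min, 3 h and 24 h for the 10 hosts or places with 2 named rings, the member in red and the other in blue. The blue line falls below 0 at 24 h in Gm272, Mms22l and Vac14 and reaches 1 or more at 3 h in the other 7, which the rule largely fixes.

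In the other 7 pairs the second ring was also 2 or more above sham at 24 h, and it was at least 1 above sham at 3 h. A ring that meets the 24-h limit and is no member must be 1 or more above sham at 3 h or at 5 min, so this pattern follows largely from the rule. For Adgre1 the second ring starts 2 bases away but spans 30780 bp, and it was 1.47 above sham at 3 h and 3.34 at 24 h, where the member was at 0.39 and 2.53. For Lmbr1, whose introns hold a distant enhancer of Sonic hedgehog, the member was at 0.17 at 3 h and 2.49 at 24 h and the shorter ring inside it (mmu_circRNA_38350) at 1.30 and 2.00. The Cdc14b rings share their start and span 4833 and 4866 bp. They were alike at 24 h, at 2.45 and 2.37, and at 3 h stood at 0.59 and 1.08, on either side of the limit. In Cpeb3 and Rasal2 the second ring lies within the member, with 24-h differences of 3.58 and 2.92 against 2.08 and 2.17. In Ptprb, the receptor phosphatase of endothelium, the second ring is antisense, and it was 2.99 above sham at 3 h and 4.97 at 24 h against 0.56 and 2.14 for the member. In Ube2cbp the second ring was 1.32 above sham at 3 h and 2.08 at 24 h.

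Members that moved least before 24 h included further genes outside the lists. The ring of Acer3, an alkaline ceramidase, gave 8.51, 8.81 and 9.07 in sham, 8.66, 8.82 and 8.67 at 3 h and 12.03, 11.45 and 9.46 at 24 h. The ring of Parp14, a mono-ADP-ribosyltransferase of macrophages and B cells, gave 5.96, 6.33 and 6.66 in sham and 10.50, 8.12 and 7.27 at 24 h. Both were within 0.3 of sham at 3 h on the mean, and both had 24-h arrays more than 2 log2 units apart.

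The ring of Emc3, a subunit of the complex that inserts membrane proteins, was 0.67 above sham at 5 min and 0.55 at 3 h. It had 8.72 on the 3-h array of the second scan and 9.40, 9.66 and 9.30 at 24 h, a within-scan difference of 0.73.

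The unnamed probe ASCRP4014131 stood apart from the other 64. It measured 10.01, 9.77 and 9.62 in sham and 8.61, 8.58 and 14.99 at 3 h, and 14.66, 10.08 and 10.89 at 24 h. Its 3-h mean stayed below the limit although 1 of the 3 arrays was the highest of all 12, and within the second scan its 24-h mean was 3.11 below that array. It was the member not called by limma at 24 h.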

How the data were processed

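Whole-blood circRNA was profiled with 12 arrays of the type Arraystar Mouse circRNA Array v2 (Cy3 only), and groups were taken from the sample labels. The authors deposited scanner output of Agilent Feature Extraction 11.0.1.1 per array, with linear intensity columns, and a series-wide table of log2 values, quantile normalized between arrays. Here spot medians less the local background median (normexp with offset 0) were quantile normalized across the 15712 spots of each array and log2-transformed, using limma 3.58.1 (R 4.3.3). Of 14236 circRNA probes, 8844 that the software called well above background on all 12 arrays were kept. The filter needs signal in every group, so rings absent from sham blood are not among the members. The number of arrays limits the precision.

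Members had a group mean minus sham mean of at least 2 at 24 h and below 1 at 3 h and 5 min. The members, host gene lists and naming rule were chosen with earlier results of these data known. One limma fit of the 4 groups gave calls (lmFit, eBayes with trend, Benjamini-Hochberg within each time point, adjusted p at most 0.05). Calls at 24 h also needed a difference of at least 2. The procedure was tested on simulated data. Differences are on the log2 scale, and their median over all measured probes at 24 h was -0.18.

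Names, types and mm10 places came from the authors' published list of circRNAs. Each of its 903 circRNAs was matched to a single probe by mean level and difference (within 0.001, next nearest at 0.008), and 852 of these were measured. The symbols of 42 were misread in the list's page images and were corrected from the gene at the place. The sources used here do not give whether starts in the list count from 0 or 1. Named were the 16 members with the largest 24-h difference whose 24-h arrays lie above all others, the 3 largest of each list and type, and those nearest each limit. Others named were picked after their values were seen. Alternatives were other background corrections, scalings and filters, the scan as a fixed or random term, a replicate block, other eBayes options and leaving out each array. The values of 1 member and of 1 host gene list are not reported here.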

Additional observations from a re-analysis of the deposited data

Results flagged for a closer look

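In 6 members every array of 5 min lay below the sham mean and every array of 24 h above it. The differences from sham at 5 min and 24 h were -1.56 and 2.29 for Mfsd6, -0.89 and 2.08 for the unnamed probe ASCRP4014131, -0.81 and 2.42 for Ppm1d, -0.79 and 2.79 for Celf2, -0.52 and 2.49 for Lmbr1 and -0.086 and 3.17 for Cdh18. The difference between the time points was not tested, and the 24-h limit had chosen these members. How many of all 8844 probes met the same condition was not counted. The 5-min mean was above sham for 57 of the 65 members and for 4926 of all 8844 probes. Low 5-min means were thus common over all probes. For Mfsd6, a membrane transporter-like protein, the 5-min values of 6.99, 6.72 and 6.88 lay below all sham values of 7.82, 8.55 and 8.90, and the 24-h values were 12.19, 11.28 and 8.68. The 5-min values of ASCRP4014131, 8.81, 9.04 and 8.89, also lay below its sham values. In the other 4 the 5-min and sham values overlapped. For Mfsd6, Celf2, Ppm1d and Lmbr1 the sham arrays spread over more than 1 log2 unit. Sham replicate 1 was the highest for Celf2 and the lowest for Mfsd6, Ppm1d and Lmbr1.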

How the results depend on the processing

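The number of circRNAs raised only at 24 h was 65, and it moved with the limits: 12 with limits of 0.5 at 3 h and 5 min, 563 with at least 1 at 24 h, 102 with no filter on low signal, 125 with the scan as a fixed term and 22 within the second scan against the 3-h array. Leaving out 1 array gave 50 to 104, the highest without replicate 3 of 24 h and the lowest without replicate 1 of 24 h. Of the 65, 30 also met all 3 limits with no background subtraction, 27 with a normexp offset of 50, 36 with cyclic loess, 38 when Agilent's processed signal was scaled to the 75th percentile and 46 in the deposited log2 table, and the 24-h difference was above 0 for all 65 under these 5 settings. With cyclic loess and with the 75th-percentile scaling all 65 still met the 24-h limit. There 27 and 25 were 1 or more above sham at 3 h, and 4 and 9 at 5 min. The calls by limma fell from 64 to 29 with no background subtraction, 26 with an offset of 50 and 30 with the scan as a fixed term, and they were 45 to 64 with 1 array left out. In the first 2 of these settings 64 of the 65 still had an adjusted p of at most 0.05, so there the size limit took the calls. With the scan as a fixed term 44 of the 65 met all 3 limits, and 10 were 1 or more above sham at 3 h. The 24-h difference stayed above 0 for 64 of the 65 there. That term rests on the 3-h group, the only one in both scans, with 1 array in the second. The 24-h arrays minus the 3-h array of the second scan gave the members a median of 1.70, while the median of 24 h minus sham was 2.13 to 2.69 with 1 array left out. The median of all probes moved from -0.18 to -0.03 with cyclic loess, where that of the members was 2.51. Among the named members 78 of 1053 alternative values moved by more than 0.58, and none changed sign. That limit is the SD over the 24-h arrays of the members' median difference from sham. The replicate block left 64 calls. Only 7 of 18 pairs of arrays of 1 number had deviations that correlated above 0.1, and 6 of 12 arrays correlated best with an array of their own number, so the numbers were not taken to pair the samples. The alternative of only members with annotated splice ends was not run.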
